A study of Homo sapiens with 9 samples.

Results

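The genes described here encode the sterol and fatty acid synthesis machinery. They are 34 genes chosen by name from the known pathway, with earlier results of these data known. Of 56823 genes with summed reads, 19658 passed the filter on low counts, which all 34 passed. The sterol arm holds 24 of the 34, as 6 regulators, 7 enzymes of the mevalonate steps and 11 enzymes from squalene to cholesterol. The other 10 belong to fatty acid synthesis. The series concerns TRIDENT, a long noncoding RNA induced by EGFR, and its labels state no question about lipid synthesis. RNA was sequenced from H1975 cells, an established human non-small cell lung cancer line, that carried dCas9-KRAB, a catalytically dead Cas9 fused to a repressor domain, under a doxycycline-inducible TRE promoter. The 9 libraries fell into 3 groups of 3, with cells holding gRNA1 or gRNA2 against TRIDENT and control cells holding a non-targeting guide. All 3 groups, controls included, carried the repressor and were grown in G418 and puromycin with 4 ug/ml doxycycline for 72 hours. The labels do not say whether each line was 1 clone or a pool, or whether replicates came from separate cultures, so p-values measure the spread between these libraries, which may be technical.

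Cells control this pathway through the SREBP transcription factors, which SCAP carries from the endoplasmic reticulum to the Golgi for cleavage when membrane sterols are low, and which the INSIG proteins hold back when sterols are plentiful. SREBP-2 mainly drives the genes of cholesterol synthesis and uptake, and SREBP-1 mainly those of fatty acid synthesis and desaturation, with much overlap between them. Proliferating tumour cells draw on both arms for membranes.

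Promoter sequences are shown for SREBF2, whose window held the core of the sterol regulatory element, for HMGCS1, which was called with both guides, and for INSIG1, DHCR7 and SCD, whose calls with gRNA1 held under all 16 alternative settings tried. RefSeq windows (GRCh38.p14) of 250 bases before and 50 after each start were found for 30 of the 34 genes; ACAT2, FDFT1, SQLE and FASN were not matched. Each stretch is given 5′ to 3′ on the gene's own strand and holds no GENCODE 29 exon of that strand. The RefSeq start used lay 0 (SREBF2), 102 (INSIG1), 100 (HMGCS1), 42 (DHCR7) and 109 (SCD) bases from the 5′ end of the most-read GENCODE transcript. The stretches do not reach the RefSeq start. Their last base lies 27 (SREBF2), 103 (INSIG1), 101 (HMGCS1), 43 (DHCR7) and 110 (SCD) bases before it. Matches nearer the start are thus not shown, such as GGGCGG at -33 and -11 of SCD, although they are counted below. It lies at chr22:41832879-41833078 (plus strand) for SREBF2, chr7:155297628-155297775 (plus) for INSIG1, chr5:43313513-43313662 (minus) for HMGCS1, chr11:71448436-71448635 (minus) for DHCR7 and chr10:100346983-100347123 (plus) for SCD. Capitals mark CACCCCAC, CCAAT and GGGCGG on either strand, so that CCAAT also appears as its complement ATTGG and GGGCGG as CCGCCC.
SREBF2: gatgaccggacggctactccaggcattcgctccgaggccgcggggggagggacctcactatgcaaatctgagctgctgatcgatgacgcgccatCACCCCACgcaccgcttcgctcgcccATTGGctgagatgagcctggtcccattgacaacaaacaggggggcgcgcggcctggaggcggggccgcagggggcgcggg
INSIG1: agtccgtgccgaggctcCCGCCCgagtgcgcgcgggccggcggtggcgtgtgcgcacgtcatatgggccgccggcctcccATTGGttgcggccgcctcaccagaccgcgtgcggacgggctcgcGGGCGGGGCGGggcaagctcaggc
HMGCS1: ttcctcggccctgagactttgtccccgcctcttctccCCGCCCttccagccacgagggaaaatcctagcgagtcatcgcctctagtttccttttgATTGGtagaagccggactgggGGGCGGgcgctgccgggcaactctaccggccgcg
DHCR7: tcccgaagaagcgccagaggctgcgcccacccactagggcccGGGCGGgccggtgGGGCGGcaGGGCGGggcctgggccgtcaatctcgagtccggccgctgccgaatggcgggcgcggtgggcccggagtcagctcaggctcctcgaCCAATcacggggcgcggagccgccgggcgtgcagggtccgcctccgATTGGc
SCD: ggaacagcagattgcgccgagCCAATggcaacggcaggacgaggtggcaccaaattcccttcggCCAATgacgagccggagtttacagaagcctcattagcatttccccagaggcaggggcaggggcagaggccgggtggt

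The sterol element core CACCCCAC, searched on both strands, stood 132 bases before the SREBF2 start and in no other matched window of the 30 genes, against 3.39% of the 27305 genes with a window. The longer form TCACNCCAC, which overlaps that match, was likewise found in SREBF2 alone among the 30 genes, against 1.39% of all genes. CCAAT, the box bound by the SREBP partner NF-Y, occurred in the windows of 23 of the 30 genes and in 39.7% of all genes. GGGCGG, the core of the Sp1 box, occurred in 28 of the 30 and in 48.3% of all genes, and the E-box CACGTG in 5 of the 30 (ELOVL5, INSIG1, LSS, SC5D and SCAP) and in 8.775% of all genes. These are matches of letters within the windows, and binding was not measured.

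Libraries held 16918432 to 26466536 estimated reads over all listed transcripts, including those not matched to a gene. TM7SF2, the gene with the fewest reads of the 34, had 67 in the library where it was lowest. Epithelial markers were abundant in all 9 libraries, with EPCAM at 363 to 425 and CDH1 at 478 to 527 CPM (estimated counts scaled to a common library size), against at most 2.64 CPM for the blood-cell marker PTPRC and at most 2.35 CPM for the endothelial marker PECAM1. Of the fibroblast markers, COL1A1 was at 11.7 to 16.8 CPM, the highest of the 8 non-epithelial markers looked at, and COL3A1 was at 0 in all 9. In a principal component analysis of all genes, gRNA2 replicate 3, the shallowest library, lay at -34.42 on the second axis, and the other 8 lay between -8.064 and 18.28. The targeted TRIDENT, annotated by RefSeq as TRIDDENT with the synonym LINC02861 on chromosome 16, was matched to GENCODE 29 by its coordinates. It was at 1.77, 2.09 and 1.87 CPM in gRNA1 cells and at 2.52, 2.29 and 2.52 CPM in gRNA2 cells. In control cells it was at 2.62, 2.28 and 2.85 CPM. All gRNA1 libraries lay below all controls (0.745-fold, 95% interval 0.588 to 0.943, adjusted p = 0.128), whereas gRNA2 libraries overlapped them (0.945-fold, 0.753 to 1.19, adjusted p = 0.81). At this low level the check of the labels by the target passed no test after adjustment over all genes. The gRNA1 interval, which is not adjusted, excluded 1. In bulk RNA, fewer cells with a transcript and less of it per cell cannot be told apart.

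With gRNA1, 8 of the 34 genes were lower than in control cells and 0 were higher at an adjusted p below 0.05 (edgeR quasi-likelihood test, Benjamini-Hochberg adjustment over all genes tested). Over all genes tested, 3.58% were called lower and 3.49% higher, or 7.08% in either direction. Because the 34 genes were chosen with earlier results of these data known, such shares are a backdrop and not a test. The 8 were INSIG1, HMGCS1, IDI1, SQLE, MSMO1, DHCR7, SCD and FADS2, that is 6 of the 24 sterol genes and 2 of the 10 fatty acid genes. The sterol count was 3 without control replicate 2 or 3, and the fatty acid count was 1 without control replicate 1 or 3 or gRNA1 replicate 2 and 4 without gRNA2 replicate 1. The median log2 fold change over the 34 genes was -0.11, with 30 below 0, against a median of -0.00034 over all genes. The 2 arms had alike medians, at -0.11 over the 24 sterol genes and -0.11 over the 10 fatty acid genes. All 3 gRNA1 libraries lay below all 3 controls for 17 of the 34 genes, a pattern seen in 14.6% of all genes, and lay above them for 0, against 13.5%.

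With gRNA2, 8 of the 34 genes were again lower and 0 higher, where 4.75% of all genes were called lower and 3.69% higher, or 8.44% in either direction. These were HMGCS1 and FDFT1 in the sterol arm and ACLY, ACACA, ELOVL6, SCD, FADS1 and FADS2 in fatty acid synthesis, that is 2 of 24 and 6 of 10. The sterol count was 0 without control replicate 2 or 3 or gRNA2 replicate 2, 1 without control replicate 1, gRNA1 replicate 2 or gRNA2 replicate 3, and 4 without gRNA1 replicate 3. The fatty acid count was 3 without control replicate 2 and 2 without control replicate 3 or gRNA2 replicate 2. The median log2 fold change was -0.095 over the 34 genes, -0.049 over the sterol genes and -0.17 over the fatty acid genes, against 0.0095 over all genes. Without gRNA2 replicate 1, the sterol median was -0.086 and the fatty acid median -0.14, and over protein-coding genes alone the sterol median was -0.029. The gRNA2 libraries lay below all controls for 14 of the 34 genes, against 13.7% of all genes, and above them for 1, MVD, against 13.6%. Both comparisons use the same 3 control libraries, so a deviation of those libraries enters both.

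**Figure D1:**
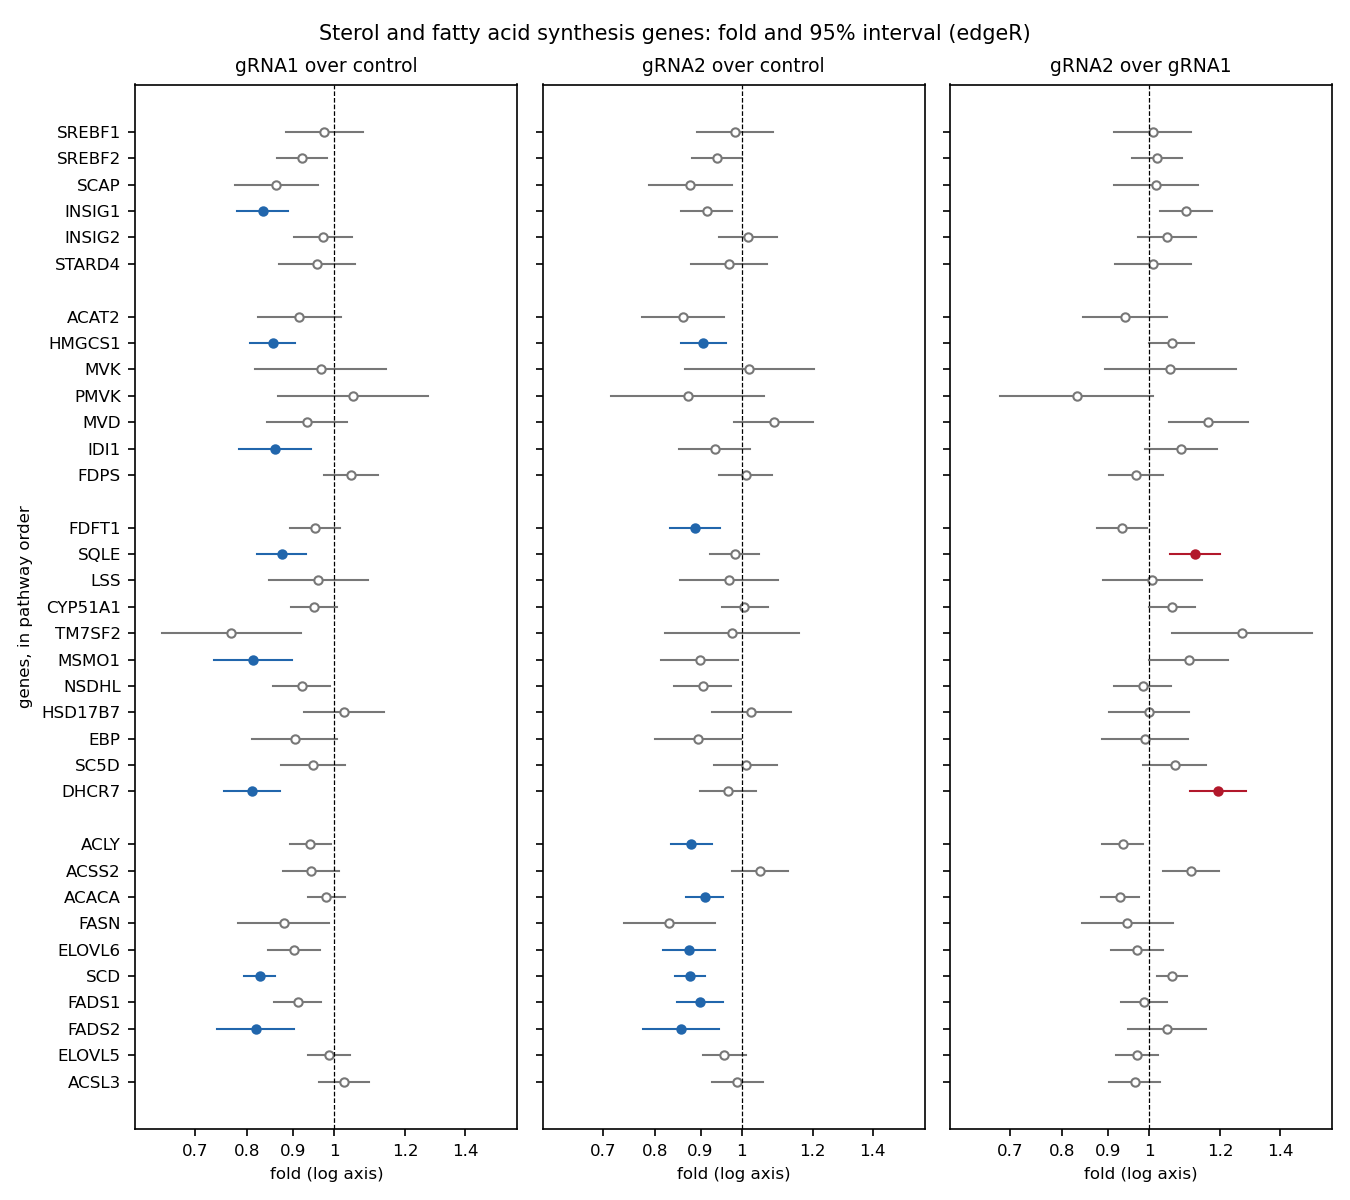
Fold change (log axis) of each of the 34 genes, in pathway order from top to bottom, for gRNA1 over control, gRNA2 over control and gRNA2 over gRNA1; points are edgeR estimates, bars 95% intervals, and filled points passed an adjusted p of 0.05 (blue lower, red higher). The 8 filled points of gRNA1 over control are 6 of the 24 sterol genes and 2 of the 10 fatty acid genes at the bottom. Those of gRNA2 over control are 2 of the 24 and 6 of the 10, and SQLE and DHCR7 are the 2 filled points between the guides.

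Among the regulators, only INSIG1 passed the test, and only with gRNA1. INSIG1, which encodes the sterol-responsive retention protein for SCAP, was at 132, 130.0 and 118 CPM in gRNA1 cells, at 137, 139.5 and 142 CPM in gRNA2 cells and at 148, 152 and 157 CPM in control cells. The 3 groups did not overlap, with gRNA1 lowest, gRNA2 between and control highest. INSIG1 fell to 0.832-fold with gRNA1 (95% interval 0.778 to 0.888, adjusted p = 0.00255), and this call held under all 16 alternatives. With gRNA2 the ratio was 0.914-fold (0.856 to 0.976, adjusted p = 0.089), which passed without gRNA1 replicate 3 (adjusted p = 0.043).

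The genes for the transcription factors themselves passed no test. SREBF2, which encodes SREBP-2, was at 142, 144 and 141 CPM in gRNA1 cells, at 154, 141 and 139.5 CPM in gRNA2 cells and at 161, 152 and 151 CPM in control cells, or 0.92-fold (0.863 to 0.982, adjusted p = 0.116) and 0.939-fold (adjusted p = 0.23). Its gRNA1 libraries lay below the controls and its gRNA2 libraries overlapped them. SREBF1, which encodes SREBP-1, was close to 1-fold in both comparisons, at 0.974-fold (0.883 to 1.07) with gRNA1 and 0.983-fold (0.891 to 1.08) with gRNA2.

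SCAP, the escort protein of the SREBPs, was at 53.7, 52.3 and 55.0 CPM in gRNA1 cells, at 61.5, 50.8 and 51.1 CPM in gRNA2 cells and at 67.5, 58.4 and 61.2 CPM in control cells. Only gRNA2 replicate 1 reached into the control range. The ratios were 0.862-fold with gRNA1 (0.775 to 0.958, adjusted p = 0.0886) and 0.877-fold with gRNA2 (0.788 to 0.975, adjusted p = 0.12); without gRNA2 replicate 1, both passed, with adjusted p = 0.0206 and 0.00853. INSIG2, the second INSIG gene, and STARD4, a cytosolic sterol transfer protein, ranged from 34.5 to 37.8 CPM and from 35.9 to 43.0 CPM over the 9 libraries, and their groups overlapped in both comparisons with the control.

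In the mevalonate steps, which build isoprenoid units from acetyl-CoA, HMGCS1 passed with both guides and IDI1 with gRNA1. HMGCS1, the cytosolic HMG-CoA synthase, was at 159, 151 and 157 CPM in gRNA1 cells, at 159, 165 and 173 CPM in gRNA2 cells and at 179, 184 and 184 CPM in control cells. Every library with a TRIDENT guide lay below every control. The ratio was 0.854-fold with gRNA1 (95% interval 0.806 to 0.905, adjusted p = 0.00303) and 0.906-fold with gRNA2 (0.855 to 0.96, adjusted p = 0.0363). The gRNA1 call held without any single library. The gRNA2 call was lost without control replicate 1, 2 or 3, gRNA1 replicate 2 or gRNA2 replicate 1 or 2, with adjusted p between 0.0598 and 0.16, and also in a fit of only the 2 groups compared (0.0661) and over protein-coding genes alone (0.0624).

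IDI1, the isopentenyl diphosphate isomerase, was at 35.1, 35.3 and 30.1 CPM in gRNA1 cells, at 35.5, 36.8 and 37.1 CPM in gRNA2 cells and at 38.2, 38.0 and 40.8 CPM in control cells. Libraries of both guides lay below the controls, with gRNA1 replicate 3 lowest. The gRNA1 ratio of 0.859-fold (0.783 to 0.942) passed narrowly at an adjusted p of 0.0473, and was lost without any 1 of the 3 controls or the 3 gRNA1 libraries and without gRNA2 replicate 2 or 3, with adjusted p between 0.0546 and 0.182, and also in a fit of only the 2 groups compared (0.0605) and over protein-coding genes alone (0.0692). With gRNA2 the ratio was 0.933-fold (adjusted p = 0.358). Of the 31-base words in the IDI1 transcripts, 16.3% also occur in transcripts of other genes, chiefly the antisense IDI2-AS1, and for HMGCS1 the share was likewise 16.3%.

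The other 5 mevalonate genes passed no test. ACAT2, the thiolase that joins the first acetyl-CoA units, was at 16.6, 17.6 and 18.3 CPM in gRNA1 cells, at 15.7, 16.1 and 17.8 CPM in gRNA2 cells and at 18.1, 20.1 and 19.1 CPM in control cells (gRNA2 0.86-fold, 0.774 to 0.957, adjusted p = 0.0783). Its gRNA2 libraries lay below the controls, and 50.3% of its 31-base words are shared with SOD2 and SOD2-OT1, so its counts are uncertain. The kinases MVK and PMVK were at 5.17 to 8.37 CPM over all libraries, and FDPS, the farnesyl diphosphate synthase, was at 49.5 to 54.1 CPM; their groups overlapped in both comparisons. MVD, the decarboxylase that ends the mevalonate steps proper, was at 17.9, 17.5 and 19.9 CPM in gRNA1 cells, at 22.8, 20.9 and 20.6 CPM in gRNA2 cells and at 20.4, 19.2 and 19.7 CPM in control cells. It was the only one of the 34 genes with all gRNA2 libraries above all controls (1.09-fold, 0.981 to 1.2, adjusted p = 0.319).

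**Figure D2:**
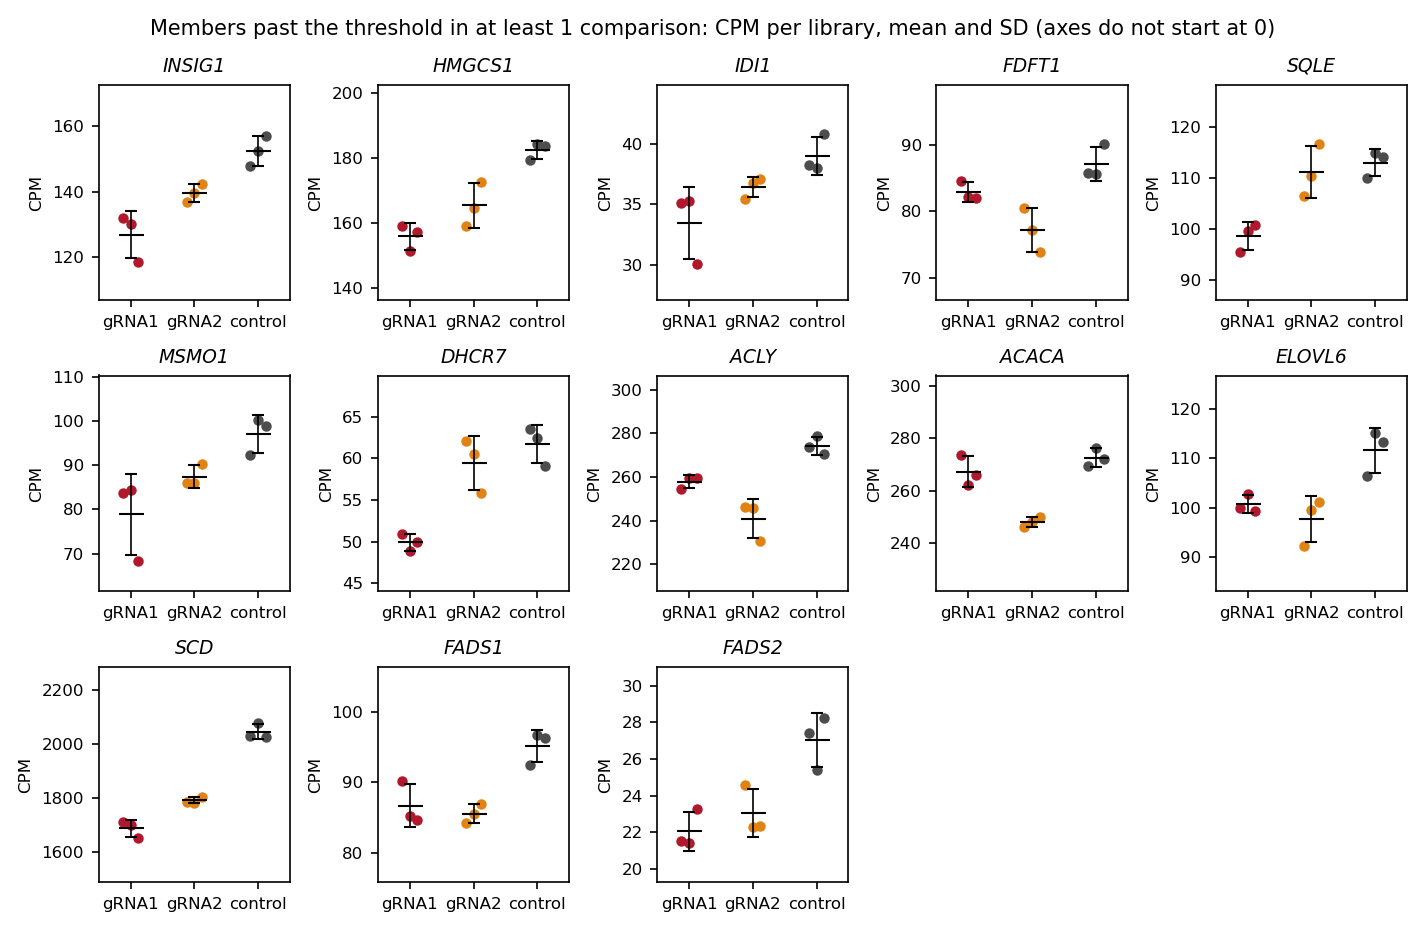
CPM per library of the 13 genes past the threshold in at least 1 comparison, for gRNA1 (red), gRNA2 (orange) and control (grey); horizontal lines are means and bars SD over 3 libraries, and the vertical axes do not start at 0. DHCR7 and SQLE show gRNA2 beside the controls and gRNA1 below both, ACACA shows gRNA1 beside the controls and gRNA2 below both, and SCD shows both guides below the controls.

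The committed sterol steps begin with FDFT1, the squalene synthase, which was at 84.7, 82.2 and 82.1 CPM in gRNA1 cells, at 80.6, 77.2 and 73.9 CPM in gRNA2 cells and at 85.8, 85.6 and 90.2 CPM in control cells. Both guides' libraries lay below the controls, those of gRNA2 lowest. FDFT1 was 0.887-fold with gRNA2 (95% interval 0.833 to 0.945, adjusted p = 0.0229), a call lost without control replicate 2 or 3 or gRNA2 replicate 2 or 3 (adjusted p 0.0594 to 0.115). With gRNA1 it was 0.951-fold (adjusted p = 0.349).

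SQLE, the squalene epoxidase and a rate-limiting enzyme, was at 95.7, 99.6 and 101 CPM in gRNA1 cells, at 107, 110.4 and 117 CPM in gRNA2 cells and at 110.1, 115 and 114 CPM in control cells. The gRNA1 libraries lay below all others, and the gRNA2 libraries overlapped the controls. SQLE was 0.873-fold with gRNA1 (0.82 to 0.93, adjusted p = 0.0128) and 0.983-fold with gRNA2 (0.923 to 1.05, adjusted p = 0.776). The gRNA1 call was lost without control replicate 2 or 3 or gRNA1 replicate 1 or 2, with adjusted p between 0.059 and 0.0805.

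The next enzymes close and trim the ring. LSS, the lanosterol synthase, was at 53.8, 49.1 and 54.3 CPM in gRNA1 cells, at 60.8, 49.3 and 47.8 CPM in gRNA2 cells and at 59.3, 54.8 and 49.6 CPM in control cells, with a wide spread within both the gRNA2 and control groups and no test passed. CYP51A1, the lanosterol demethylase, was at 134 to 143 CPM in gRNA1 cells, at 143 to 152 CPM in gRNA2 cells and at 144 to 151 CPM in control cells; 83% of its 31-base words are shared with other genes, the pseudogene CYP51A1P2 among them, so its value is uncertain. TM7SF2, a sterol reductase, was at 3.55, 3.29 and 3.45 CPM in gRNA1 cells, at 4.58, 4.39 and 4.02 CPM in gRNA2 cells and at 4.07, 4.85 and 4.41 CPM in control cells. Its gRNA1 libraries were the lowest 3, and the ratio of 0.768-fold, the smallest of the 34 with gRNA1, had a wide interval (0.642 to 0.918) and an adjusted p of 0.0743.

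MSMO1, the methylsterol monooxygenase, was at 83.8, 84.5 and 68.2 CPM in gRNA1 cells, at 86.0, 85.9 and 90.4 CPM in gRNA2 cells and at 92.3, 100.3 and 98.9 CPM in control cells. Libraries of both guides lay below the controls, with gRNA1 replicate 3 well under the rest. MSMO1 was 0.811-fold with gRNA1 (0.734 to 0.897, adjusted p = 0.015), a call lost without control replicate 2 or 3 (adjusted p 0.0758 and 0.0631). With gRNA2 it was 0.898-fold (0.813 to 0.992, adjusted p = 0.178), and it passed without gRNA1 replicate 3 (adjusted p = 0.0373).

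NSDHL, HSD17B7, EBP and SC5D, which remove methyl groups and shift or add double bonds, passed no test with either guide. For NSDHL, all gRNA2 libraries (37.3 to 38.4 CPM) lay below the controls (40.1 to 43.0 CPM), at 0.905-fold (adjusted p = 0.089), and the gRNA1 ratio was 0.92-fold (adjusted p = 0.166). EBP was at 29.1 to 35.3 CPM in gRNA2 cells and at 36.6 to 38.4 CPM in control cells, at 0.894-fold (adjusted p = 0.205), with a gRNA1 ratio of 0.903-fold (adjusted p = 0.267). HSD17B7 was 1.025-fold in both comparisons at 13.4 to 15.1 CPM, with 22.7% of its 31-base words shared with other genes, chiefly the pseudogene HSD17B7P2, and SC5D was at 60.8 to 69.6 CPM with overlapping groups.

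DHCR7, the reductase that turns 7-dehydrocholesterol into cholesterol, had the lowest adjusted p of the 34 genes in the comparison of the guides, given below. It was at 51.0, 48.9 and 49.9 CPM in gRNA1 cells, at 62.0, 60.5 and 55.9 CPM in gRNA2 cells and at 63.6, 62.4 and 59.1 CPM in control cells. The gRNA1 libraries sat below all 6 others, which overlapped each other. DHCR7 fell to 0.809-fold with gRNA1 (95% interval 0.752 to 0.87, adjusted p = 0.00196) and was 0.966-fold with gRNA2 (0.9 to 1.04, adjusted p = 0.591). The gene lies at 71428193 to 71452868 on the minus strand of chromosome 11 (hg38, GENCODE 29), and none of its 31-base words is found in another gene's transcripts.

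Fatty acid synthesis starts from cytosolic acetyl-CoA and malonyl-CoA, and ACLY and ACACA, which make them, were lower with gRNA2. ACLY, the ATP citrate lyase, was at 254, 259.5 and 259.5 CPM in gRNA1 cells, at 246, 246 and 230.5 CPM in gRNA2 cells and at 274, 279 and 270.5 CPM in control cells. The 3 groups did not overlap, with gRNA2 lowest. ACLY fell to 0.878-fold with gRNA2 (95% interval 0.833 to 0.926, adjusted p = 0.00511), a call that held without any single library, and was 0.94-fold with gRNA1 (0.892 to 0.991, adjusted p = 0.15).

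ACSS2, which makes acetyl-CoA from acetate, was at 37.6, 38.5 and 40.2 CPM in gRNA1 cells, at 44.3, 43.3 and 41.7 CPM in gRNA2 cells and at 41.6, 39.7 and 42.2 CPM in control cells, and passed no test. ACACA, the acetyl-CoA carboxylase, was at 274, 262 and 266 CPM in gRNA1 cells, at 246, 248 and 250.1 CPM in gRNA2 cells and at 269, 276 and 272 CPM in control cells. For ACACA the gRNA2 libraries lay below all others, and gRNA1 overlapped the controls. ACACA was 0.91-fold with gRNA2 (0.867 to 0.954, adjusted p = 0.0183) and 0.98-fold with gRNA1 (0.934 to 1.03, adjusted p = 0.657). The gRNA2 call was lost without control replicate 2 or 3 or gRNA2 replicate 2, with adjusted p between 0.0715 and 0.102.

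FASN, the fatty acid synthase, was at 364, 361 and 397 CPM in gRNA1 cells, at 407, 342 and 311 CPM in gRNA2 cells and at 464, 410.4 and 404 CPM in control cells. All gRNA1 libraries lay below the controls. The gRNA2 libraries were the most scattered, and gRNA2 replicate 1 overlapped the controls; the same library was the highest of its group for SREBF1, SREBF2, SCAP and LSS among others, and the part of that library in these results was not tested apart from leaving it out. FASN was 0.83-fold with gRNA2 (0.739 to 0.933), which missed the threshold at an adjusted p of 0.0501, and 0.878-fold with gRNA1 (0.781 to 0.987, adjusted p = 0.175). Without gRNA2 replicate 1 the gRNA2 and gRNA1 comparisons both passed, with adjusted p = 0.00213 and 0.0471, and without gRNA1 replicate 3 the gRNA2 comparison passed at 0.049.

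SCD, the stearoyl-CoA desaturase that makes oleate, was by far the most abundant of the 34 transcripts per unit length, at 292.5 ± 17.25 TPM in gRNA1 cells, 316.5 ± 11.7 TPM in gRNA2 cells and 349.4 ± 12.8 TPM in control cells (TPM, the authors' transcript abundance per unit length, SD, n = 3 each); SREBF1 came next, at 126.4 ± 9.82 TPM in control cells. In CPM, SCD was at 1712, 1703 and 1654 in gRNA1 cells, at 1788, 1784 and 1806 in gRNA2 cells and at 2032, 2080 and 2028 in control cells. The groups were far apart relative to their spread, with gRNA1 lowest, gRNA2 between and control highest. SCD fell to 0.826-fold with gRNA1 (95% interval 0.794 to 0.859, adjusted p = 2.7e-05) and to 0.876-fold with gRNA2 (0.842 to 0.911, adjusted p = 0.000677). Both calls held under all 16 alternatives, with adjusted p of at most 0.000821 and 0.0141. The gene spans 100347124 to 100364834 on the plus strand of chromosome 10 (hg38), and 13.1% of its 31-base words are shared with other genes, including the pseudogene SCDP1.

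SCD made up a large part of the summed level. The 34 genes together were at 4623, 4593 and 4560 CPM in gRNA1 cells, at 4755, 4674 and 4666 CPM in gRNA2 cells and at 5203, 5237 and 5171 CPM in control cells. Without SCD the sums were 2911, 2890 and 2906 CPM in gRNA1 cells, 2967, 2890 and 2860 CPM in gRNA2 cells and 3171, 3157 and 3143 CPM in control cells. With or without SCD, every library with a TRIDENT guide lay below every control.

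The elongase ELOVL6, which extends palmitate, was at 99.9, 103 and 99.4 CPM in gRNA1 cells, at 92.3, 99.6 and 101 CPM in gRNA2 cells and at 106, 115 and 113 CPM in control cells. All 6 libraries with a TRIDENT guide lay below the controls. ELOVL6 was 0.874-fold with gRNA2 (0.817 to 0.934, adjusted p = 0.0166), lost without control replicate 2 or 3 or gRNA2 replicate 1 or 2 (adjusted p 0.0564 to 0.102), and 0.902-fold with gRNA1 (0.844 to 0.964, adjusted p = 0.0619), which passed without gRNA2 replicate 1 (adjusted p = 0.0407).

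The front-end desaturases FADS1 and FADS2, which act on polyunsaturated fatty acids, were lower with gRNA2, and FADS2 also with gRNA1. FADS1 was at 90.1, 85.2 and 84.6 CPM in gRNA1 cells, at 84.2, 85.5 and 86.9 CPM in gRNA2 cells and at 92.5, 96.8 and 96.2 CPM in control cells. FADS2 was at 21.5, 21.4 and 23.3 CPM in gRNA1 cells, at 24.6, 22.3 and 22.3 CPM in gRNA2 cells and at 27.4, 25.4 and 28.2 CPM in control cells. In both genes, all libraries with a TRIDENT guide lay below all controls. FADS1 was 0.898-fold with gRNA2 (0.846 to 0.953, adjusted p = 0.028), lost without control replicate 2 or 3, gRNA1 replicate 2 or gRNA2 replicate 1 or 2 (adjusted p 0.0504 to 0.129), and 0.91-fold with gRNA1 (adjusted p = 0.0563), which passed without gRNA1 replicate 1 (adjusted p = 0.0493). FADS2 was 0.817-fold with gRNA1 (0.741 to 0.901, adjusted p = 0.0163), lost without control replicate 1 or 3 or gRNA1 replicate 1 or 2 (adjusted p 0.0558 to 0.0854). With gRNA2, FADS2 was 0.856-fold (0.776 to 0.943, adjusted p = 0.0484), lost without control replicate 1 or 3, gRNA1 replicate 1 or 2 or gRNA2 replicate 2 or 3 (adjusted p 0.0596 to 0.185), with DESeq2 (0.0565), with only the 2 groups compared (0.0618) and over protein-coding genes alone (0.0568). The 2 genes overlap on opposite strands of chromosome 11 and share 8.48% and 5.24% of their 31-base words, mostly with each other, so reads could be split between them.

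ELOVL5, the elongase of polyunsaturated fatty acids, and ACSL3, a long-chain acyl-CoA synthetase of lipid droplets, did not pass with either guide. ELOVL5 was at 174 to 181 CPM in gRNA1 cells, at 169 to 176 CPM in gRNA2 cells and at 175 to 186 CPM in control cells. ACSL3 was at 133 to 135 CPM in gRNA1 cells, at 124 to 136 CPM in gRNA2 cells and at 124 to 135 CPM in control cells. The interval of the ELOVL5 ratio was 0.934 to 1.04 with gRNA1 and 0.906 to 1.01 with gRNA2, and that of ACSL3 was 0.96 to 1.09 with gRNA1 and 0.9255 to 1.055 with gRNA2.

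**Figure D3:**
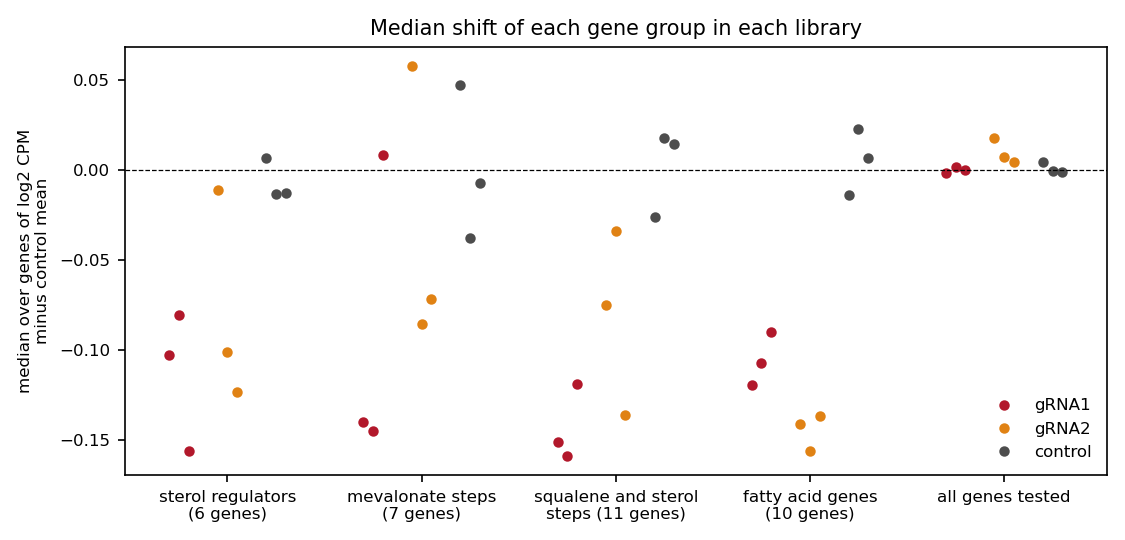
Median, over the genes of each group, of the log2 CPM of a library minus the control mean, with 1 point per library (gRNA1 red, gRNA2 orange, control grey). Fatty acid genes lie between -0.156 and -0.0897 in all 6 libraries with a TRIDENT guide and between -0.0137 and 0.0231 in the controls, whereas the regulators and mevalonate genes overlap between groups and all genes tested stay near 0.

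Library by library, the median shift of the 10 fatty acid genes was -0.119, -0.107 and -0.0897 on the log2 scale in gRNA1 cells, -0.141, -0.156 and -0.136 in gRNA2 cells and -0.0137, 0.0231 and 0.007 in control cells. For the 11 squalene and sterol enzymes it was -0.151, -0.159 and -0.119 in gRNA1 cells, -0.0747, -0.0338 and -0.136 in gRNA2 cells and -0.0258, 0.0178 and 0.0144 in control cells. Both groups of genes thus had lower medians in each library with a TRIDENT guide than in each control, while the other 2 groups overlapped the controls. The 7 mevalonate genes reached 0.00855 in gRNA1 replicate 3 and 0.0577 in gRNA2 replicate 1, and the 6 regulators -0.0107 in gRNA2 replicate 1, against -0.0134 in the lowest control. These medians describe chosen genes, and no test was made of them.

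Set directly against gRNA1, gRNA2 cells had 2 of the 34 genes higher and 0 lower, where 3.12% of all genes were called higher and 3.1% lower, or 6.22% in either direction. All gRNA2 libraries lay above all gRNA1 libraries for 10 of the 34 genes, against 11.9% of all genes, and below them for 3, against 12%. DHCR7 was 1.19-fold higher in gRNA2 than in gRNA1 cells (95% interval 1.11 to 1.28, adjusted p = 0.00644), and the call held under all 16 alternatives. SQLE was 1.13-fold higher (1.06 to 1.2, adjusted p = 0.0285), a call lost without control replicate 2, gRNA1 replicate 1 or 2 or gRNA2 replicate 2 or 3 (adjusted p 0.0597 to 0.122), or in a fit of only the 2 groups compared (0.0517). Of the 24 sterol genes, 18 had a positive log2 ratio of gRNA2 over gRNA1, with a median of 0.048. Over all 19658 genes tested, 10044 were positive, with a median of 0.0039. Without gRNA2 replicate 1, 11 of the 24 sterol genes were negative, against 6 with all libraries, and their median was 0.053.

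The 10 fatty acid genes had 7 negative ratios of gRNA2 over gRNA1 and a median of -0.044. At an unadjusted p below 0.05 there were 4 of the 10, against 3862 of the 19658 genes tested. After adjustment, 0 of the 10 passed in the edgeR fit over all genes tested. ACACA came nearest, at 0.928-fold (adjusted p = 0.067), and was called with DESeq2 (adjusted p = 0.0335) and by edgeR over protein-coding genes alone (adjusted p = 0.0498). Without gRNA2 replicate 1 the median was -0.0125. SCD was 1.06-fold (adjusted p = 0.0763) and ACSS2 1.11-fold (adjusted p = 0.0785), in both cases with all gRNA2 libraries above all gRNA1 libraries. In the sterol arm, MVD was 1.17-fold (adjusted p = 0.077) and passed without gRNA1 replicate 3 (adjusted p = 0.0439), and PMVK was 0.83-fold (adjusted p = 0.283) and passed without gRNA2 replicate 1 (adjusted p = 0.0406). Elsewhere, a gene called with 1 guide and not with the other is not shown to differ between guides.

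Neighbouring genes of lipid metabolism outside the 34 showed 0 higher calls against the control in the fit over all genes tested. NPC2, a lysosomal cholesterol carrier named after its values were seen, had all libraries of both guides above all controls, at 1.08-fold with gRNA1 (adjusted p = 0.0922) and 1.08-fold with gRNA2 (adjusted p = 0.112), and passed with gRNA1 over protein-coding genes alone (adjusted p = 0.0427). ACSL4 passed as higher with gRNA2 than in control cells without gRNA2 replicate 1 (adjusted p = 0.0396). Between the guides, ACSL4 was higher in gRNA2 cells with DESeq2 (0.0251), without the filter (0.00709) and without gRNA2 replicate 1 (0.0142). Of 20 tested genes of sterol sensing, transport and storage, 3 were lower with gRNA1 and 1 with gRNA2, and of 20 tested genes of fatty acid elongation, activation and supply, 5 were lower with gRNA1 and 1 with gRNA2. Over all genes, 3.58% were called lower with gRNA1 and 4.75% with gRNA2, so the counts of 1 in 20 with gRNA2 are at the background. The 3 sterol genes lower with gRNA1 included ERLIN1. Its call was lost without control replicate 1, 2 or 3, gRNA1 replicate 2 or 3 or gRNA2 replicate 2 (adjusted p 0.05002 to 0.1234). It was also lost over protein-coding genes alone (0.0516). The 5 fatty acid genes included HSD17B12. That call was lost without control replicate 2 or 3, gRNA1 replicate 2 or 3 or gRNA2 replicate 2 (adjusted p 0.05014 to 0.1071). HACD2, a dehydratase of the elongation cycle, was at 161, 158 and 151 CPM in gRNA1 cells, at 158, 164 and 164 CPM in gRNA2 cells and at 182, 186 and 186 CPM in control cells. It was 0.847-fold with gRNA1 (adjusted p = 0.00133) and 0.875-fold with gRNA2 (adjusted p = 0.00519). OSBP, the oxysterol-binding protein, was at 169, 174 and 172 CPM in gRNA1 cells, at 177, 182 and 180.3 CPM in gRNA2 cells and at 207, 201 and 195 CPM in control cells, or 0.853-fold (adjusted p = 0.00144) and 0.894-fold (adjusted p = 0.0119); the gRNA2 call was lost without control replicate 1 or 2 or gRNA2 replicate 2 (adjusted p 0.052 to 0.0596).

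With gRNA1, ABCA1, the cholesterol efflux pump, was lower at 0.863-fold (adjusted p = 0.00512). Also lower with gRNA1 were the acyl-CoA synthetase ACSL5 at 0.843-fold (adjusted p = 0.00708) and the elongase ELOVL1 at 0.846-fold (adjusted p = 0.0142). The ELOVL1 call was lost without control replicate 2 or gRNA1 replicate 1 (adjusted p 0.0715 and 0.0646). With gRNA2 none of these genes was called. For each of them all gRNA2 libraries lay below all controls, a pattern seen in 13.7% of all genes. ELOVL1 with gRNA2 passed without gRNA2 replicate 1 (adjusted p = 0.0158). FADS3, a further desaturase of the FADS cluster, was at 26.4, 28.3 and 28.7 CPM in gRNA1 cells, at 40.7, 34.5 and 32.9 CPM in gRNA2 cells and at 37.2, 36.3 and 34.4 CPM in control cells. The gRNA1 libraries were the lowest 3, at 0.773-fold of control (adjusted p = 0.00744). FADS3 was 1.3-fold higher in gRNA2 than in gRNA1 cells (95% interval 1.17 to 1.45, adjusted p = 0.00707).

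Summing reads over the transcripts of a gene leaves a change in the mix of transcript lengths inside the gene's count, so the fit was repeated with an offset for the mean effective transcript length of each gene in each library. With this offset, 3 of the 34 genes were lower with gRNA1 (INSIG1, DHCR7 and SCD, adjusted p = 0.0102, 0.0137 and 0.000821), SCD alone was lower with gRNA2 (adjusted p = 0.00477), and DHCR7 alone was higher in gRNA2 than in gRNA1 cells. The other calls were lost, with adjusted p between 0.0541 (MSMO1) and 0.258 (SQLE) for gRNA1, between 0.112 (ELOVL6) and 0.706 (FADS2) for gRNA2, and 0.34 for SQLE between the guides. Outside the 34, the offset ended the calls of ACSL5, FADS3 and ELOVL1 with gRNA1 (adjusted p = 0.139, 0.0621 and 0.116). It also ended those of ERLIN1 and HSD17B12 with gRNA1 (adjusted p = 0.3705 and 0.0556). Further calls lost were those of OSBP with gRNA2 (0.0628) and of FADS3 between the guides (0.0845). Most of the lost calls kept a log2 fold change of about the same size or larger. With gRNA1, FADS2 was at -0.29 with and without the offset, and HMGCS1 at -0.21 with and -0.23 without it. MSMO1 was at -0.28 with and -0.30 without it, IDI1 at -0.29 with and -0.22 without it, and SQLE at -0.16 with and -0.20 without it. With gRNA2, ACLY was at -0.20 with and -0.19 without the offset, and HMGCS1 at -0.17 with and -0.14 without it. FDFT1 was at -0.17 both ways and ELOVL6 at -0.22 with and -0.19 without it. The other lost calls with gRNA2 shrank, with ACACA at -0.068 with and -0.14 without it. FADS1 was at -0.10 with and -0.16 without it, and FADS2 at -0.10 with and -0.23 without it. The medians over the 34 genes were -0.11 with gRNA1 and -0.094 with gRNA2, with 28 and 26 genes below 0. With gRNA2 the medians of the arms came nearer to 0, at -0.022 with the offset and -0.049 without it for the sterol genes and at -0.11 with and -0.17 without it for the fatty acid genes. FASN, SCAP and MVK were among the genes whose estimates moved. The mean effective length of FASN was 3447 ± 240.3 bases in gRNA1 cells, 3736 ± 61.4 bases in gRNA2 cells and 3984 ± 633 bases in control cells (SD, n = 3 each), and its log2 fold change with gRNA1 was -0.0013 with the offset and -0.19 without it. For SCAP with gRNA1 the values were -0.032 with the offset and -0.21 without it, and for MVK 0.25 with it and -0.05 without it; none of these passed. SCD and INSIG1 changed little in length, and their log2 fold changes with gRNA1 were -0.28 with and without the offset for SCD and -0.28 with and -0.27 without it for INSIG1.

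**Figure D4:**
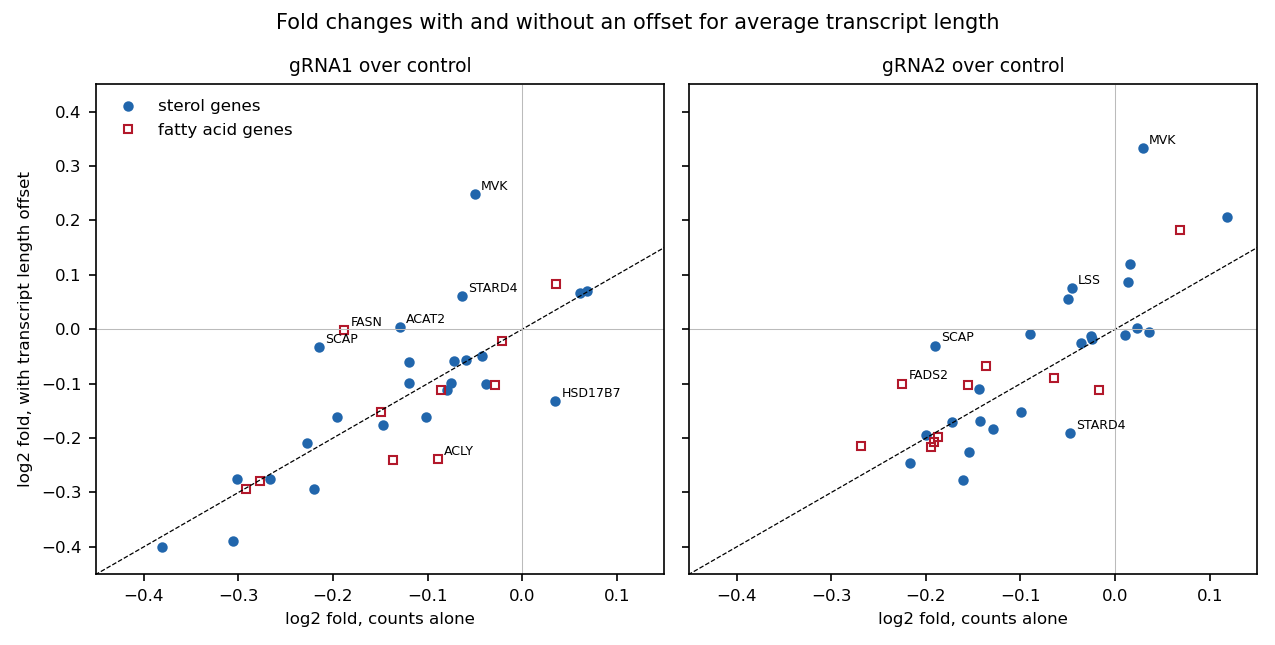
Log2 fold change of each of the 34 genes with the transcript-length offset (vertical axis) against that from counts alone (horizontal axis), for gRNA1 over control and gRNA2 over control; the dashed line marks equal values, filled circles are sterol genes and open squares fatty acid genes. Most genes lie near the line and below 0 on both axes, and FASN, SCAP and MVK lie above it in gRNA1 over control.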

How the data were processed

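Total RNA depleted of ribosomal RNA (KAPA HyperPrep with RiboErase, per the labels' protocols) from 9 libraries was quantified by the authors with Salmon 1.4.0 against hg38, per the submitters' processing notes. The deposited files give estimated counts and TPM per transcript, per the file headers; the strand setting is not given in the sources used here. Estimated counts were summed to genes with GENCODE 29, which held 95.7% of the 211939 transcripts; the rest carried 1.26% to 1.33% of reads and were left out. Sums were rounded to whole numbers and tested with edgeR 4.0.16 in R 4.3.3: 1 quasi-likelihood fit of the 3 groups, filterByExpr, TMM, two-sided, Benjamini-Hochberg adjusted p below 0.05 over 19658 genes. The biological coefficient of variation was 0.051. CPM values use TMM-scaled library sizes. TPM was summed over transcripts.

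The 34 genes and the lists of other pathway genes were chosen with earlier results of these data known. All 34 were named, and of the other pathway genes those past the threshold against the control, at most the 6 with the lowest adjusted p per comparison. ERLIN1 and HSD17B12, past the threshold with gRNA1 but not among those 6, were named for their lost calls. NPC2 and ACSL4 were named after their values were seen. The 16 alternatives were DESeq2 1.42.0, RLE normalization, no filter, the replicate number as a block, only the 2 groups compared, the transcript-length offset, protein-coding genes alone, and leaving out each of the 9 libraries. The fit was tested on simulated data. Shared sequence was counted as 31-base words of GENCODE transcripts. IDI2, ELOVL2 and ELOVL4 fell below the filter. Python 3.11.15 with pandas 2.3.3 and matplotlib 3.10.9 made the tables and plots.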

Additional observations from a re-analysis of the deposited data

How the results depend on the processing

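Across the 16 alternatives no gene called among the 34 reversed its direction. With gRNA1, 8 genes were called; the count was 3 with the transcript-length offset, 7 to 11 under the other 6 settings that keep all libraries, and 4 to 11 when 1 library was left out. With gRNA2, 8 were called; the count was 1 with the offset, 6 to 11 under the other 6, and 2 to 11 when 1 library was left out. Between the guides, 2 were called, 1 with the offset, 1 with only the 2 groups compared, 2 or 3 under the other 5, and 1 to 3 when 1 library was left out. Over all genes, the offset left 538, 434 and 446 calls for gRNA1, gRNA2 and gRNA2 over gRNA1, against 1391, 1659 and 1222 without it, and leaving out 1 library left 654 to 1701, 671 to 1817 and 575 to 1215. The cause of the lower counts with the offset was not tested. The between-guide median of the 10 fatty acid genes changed sign with the offset, to 0.037.

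The deviations of same-numbered libraries of different groups had small correlations, from -0.046 to 0.073. Even so, 6 of 9 libraries correlated best with their own number. Whether the numbers mark pairs was not tested, and the main fit did not take them as pairs. The replicate block gave 9, 9 and 2 calls, against 8, 8 and 2 without it. With the block IDI1 with gRNA1 was not called (adjusted p = 0.071), and SCAP and ELOVL6 with gRNA1 (0.0412 and 0.0455) and FASN with gRNA2 (0.0308) were. Depth limits mainly TM7SF2, MVK and PMVK. Of the 8 calls with gRNA1, 4 (IDI1, SQLE, MSMO1 and FADS2) were lost without at least 1 single library, and so were 6 of the 8 with gRNA2 (HMGCS1, FDFT1, ACACA, ELOVL6, FADS1 and FADS2). Without the filter on low counts, FASN and SCAP passed with both guides (adjusted p at most 0.00807), ELOVL6 with gRNA1 (0.0316) and MSMO1 with gRNA2 (0.023). FASN with gRNA2 also passed with RLE (0.0434), FASN and SCAP with gRNA1 with only the 2 groups compared (0.049 and 0.0326), and SCAP with gRNA1 with DESeq2 (0.0477).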
